A study of Mus musculus with 16 samples.

Results

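The genes described here encode the 5 NF-kB subunits (Nfkb1, Nfkb2, Rel, Rela and Relb) and 5 members of the IkB family of NF-kB inhibitors (Nfkbia, Nfkbib, Nfkbie, Nfkbiz and Bcl3). They were chosen by name, and all 10 were among the 9614 genes tested. RNA was sequenced from bone-marrow-derived macrophages (BMDM) of male C57BL/6 mice, 8 weeks old. Every mouse carried LysM-Cre, a Cre recombinase expressed in myeloid cells. The WT mice were LysM-Cre:NELF-B wt/wt and the NELF-B KO mice were LysM-Cre:NELF-B fl/fl. In the KO, Cre removes 1 exon of Nelfb, which encodes a subunit of the negative elongation factor that holds RNA polymerase II near promoters. BMDM were left untreated or were exposed for 1 hr to LPS at 10 ng/ml, the endotoxin of Gram-negative bacteria, without or with 100 nM dexamethasone (Dex), a synthetic glucocorticoid. Each genotype had 2 untreated, 3 LPS and 3 LPS+Dex libraries from mice called A, B and C, and mouse C of either genotype had no untreated library. The comparisons asked how these genes responded to LPS, whether Dex changed the LPS level in the same mouse, and whether either response or the level itself differed without NELF-B.

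NF-kB is a dimeric transcription factor that drives inflammatory genes in macrophages. In resting cells IkB proteins hold the dimers in the cytoplasm, and toll-like receptor signaling through the IkB kinase complex leads to IkB degradation and nuclear entry of NF-kB. Several subunit and IkB genes are themselves NF-kB targets, so newly made IkBα ends the response, and ligand-bound glucocorticoid receptor is known to repress many NF-kB-driven genes. Nfkb1 and Nfkb2 encode the p105 and p100 precursors of p50 and p52, while Rela (p65), Rel (c-Rel) and Relb encode the subunits with a transactivation domain. Nfkbia, Nfkbib and Nfkbie encode the cytoplasmic inhibitors IkBα, IkBβ and IkBε. Nfkbiz (IkBζ) and Bcl3 encode atypical nuclear IkB proteins that bind p50 or p52 dimers and can activate as well as repress their targets.

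The stretches around the transcription start site of 5 of these genes that hold a match to the kB consensus, and of Rela, which holds none, are shown because the element is the site that NF-kB is known to bind. Windows from 250 bases before to 50 bases after each start site (RefSeq, GRCm38.p6) were matched by symbol for 7 of the 10 genes. Nfkb1, Relb and Nfkbiz had no entry. The 10-letter kB consensus was searched on both strands, overlapping matches included, and was found in 5 of the 7 genes, against 12.2% of the 7399 tested genes with a window and 8.46% of all 32851 windows. Nfkbia had a match whose first base was 29 bases before the start site, Nfkbie one at 106 bases, and Rel an overlapping pair at 92 and 91 bases. The window of the first of 3 Nfkb2 start sites had an overlapping pair at 39 and 38 bases and another match at 11 bases before the start, and the windows of the other start sites also had matches. The match in Bcl3 lay just inside the transcript. The Rela and Nfkbib windows held no match. A match describes these letters only. Each line runs 5′ to 3′ on the gene's strand from 120 bases before to 30 bases after the start site, with kB matches in capitals. The stretches are chr12:55492618-55492767 (minus strand, Nfkbia), chr17:45555580-45555729 (plus, Nfkbie), chr11:23770940-23771089 (minus, Rel), chr19:46304617-46304766 (plus, Nfkb2), chr7:19822726-19822875 (minus, Bcl3) and chr19:5637421-5637570 (plus, Rela).
Nfkbia: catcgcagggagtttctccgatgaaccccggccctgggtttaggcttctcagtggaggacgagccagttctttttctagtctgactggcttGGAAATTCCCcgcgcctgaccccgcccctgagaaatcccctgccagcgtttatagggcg
Nfkbie: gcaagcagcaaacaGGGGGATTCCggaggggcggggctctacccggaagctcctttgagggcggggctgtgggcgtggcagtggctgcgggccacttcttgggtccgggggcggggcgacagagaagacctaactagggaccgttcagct
Rel: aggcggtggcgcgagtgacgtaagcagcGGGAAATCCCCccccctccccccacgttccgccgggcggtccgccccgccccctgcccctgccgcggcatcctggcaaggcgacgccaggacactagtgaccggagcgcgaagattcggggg
Nfkb2: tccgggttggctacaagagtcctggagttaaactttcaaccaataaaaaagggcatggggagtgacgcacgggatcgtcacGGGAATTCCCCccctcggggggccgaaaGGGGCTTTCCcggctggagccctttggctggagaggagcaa
Bcl3: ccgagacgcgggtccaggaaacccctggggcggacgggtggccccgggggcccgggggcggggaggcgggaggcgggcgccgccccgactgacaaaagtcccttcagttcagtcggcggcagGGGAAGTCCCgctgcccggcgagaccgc
Rela: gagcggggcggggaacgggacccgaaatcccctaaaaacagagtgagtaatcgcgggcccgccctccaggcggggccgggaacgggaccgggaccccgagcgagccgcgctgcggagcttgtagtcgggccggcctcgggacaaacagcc

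The 16 libraries held 25030934 to 49730083 reads, recovered from the deposited values, and the fewest reads of any of the 10 genes in a library were the 99 of Rel in the untreated library of WT mouse A. That library was unlike the rest: its correlation over genes with any other library was 0.83 to 0.909, against 0.924 to 0.993 among the other 15. LPS and untreated results that rest on it are therefore given with and without it. The untreated library of KO mouse A stood apart to a lesser degree. Its highest correlation with any other library was 0.977, and that of each remaining library was 0.99 or more. Nelfb was at 5.59 to 6.21 log2 CPM (log2 of the reads of a gene scaled to the size of its library) in WT libraries and at 3.27 to 4.38 in KO libraries, which did not overlap. Of 10 macrophage markers 9 were in the table, with a summed level of 10400 to 14900 CPM. The table held 1 listed marker each of T cells (Cd4), B cells (Cd79b), neutrophils (S100a8) and dendritic cells (Ccr7), at 0.46 to 59.2 CPM. It held 4 of 6 stromal markers (summed 49.2 to 145 CPM), 0 of 4 erythroid and 0 of 5 mast cell markers. Their part in the results was not tested, and in bulk RNA fewer cells of a type and less RNA per cell cannot be told apart.

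Transcript levels of the 10 genes were compared per kb of the principal transcript. In untreated WT BMDM, Nfkbia was the most abundant, at 70 and 97.9 CPM per kb, and Rel the least, at 0.605 and 2.83. In the same libraries, mean levels of Rela, Nfkb2, Nfkb1 and Relb lay between 30.2 and 46.5 CPM per kb and those of Bcl3, Nfkbib and Nfkbie between 11.6 and 28.9. Nfkbiz, at 16 and 77.4, differed more between these mice than its distance from its neighbors in the order. After LPS the 3 WT libraries held 763, 854 and 901 CPM per kb of Nfkbia and 274 to 385 of Nfkbiz, both above every other member. Nfkb2 (59.6 to 74.2), Nfkbie (55.7 to 72.2) and Rela (60.6 to 65.3) overlapped, as did Nfkbib, Relb and Bcl3 below them. Rel remained the lowest with LPS, at 10.3 to 13.2 CPM per kb. This rank depends on the division by transcript length. In CPM, Rel (76.7 to 98.4) overlapped Bcl3 (69.9 to 85.5) in the same WT LPS libraries.

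**Figure D1:**
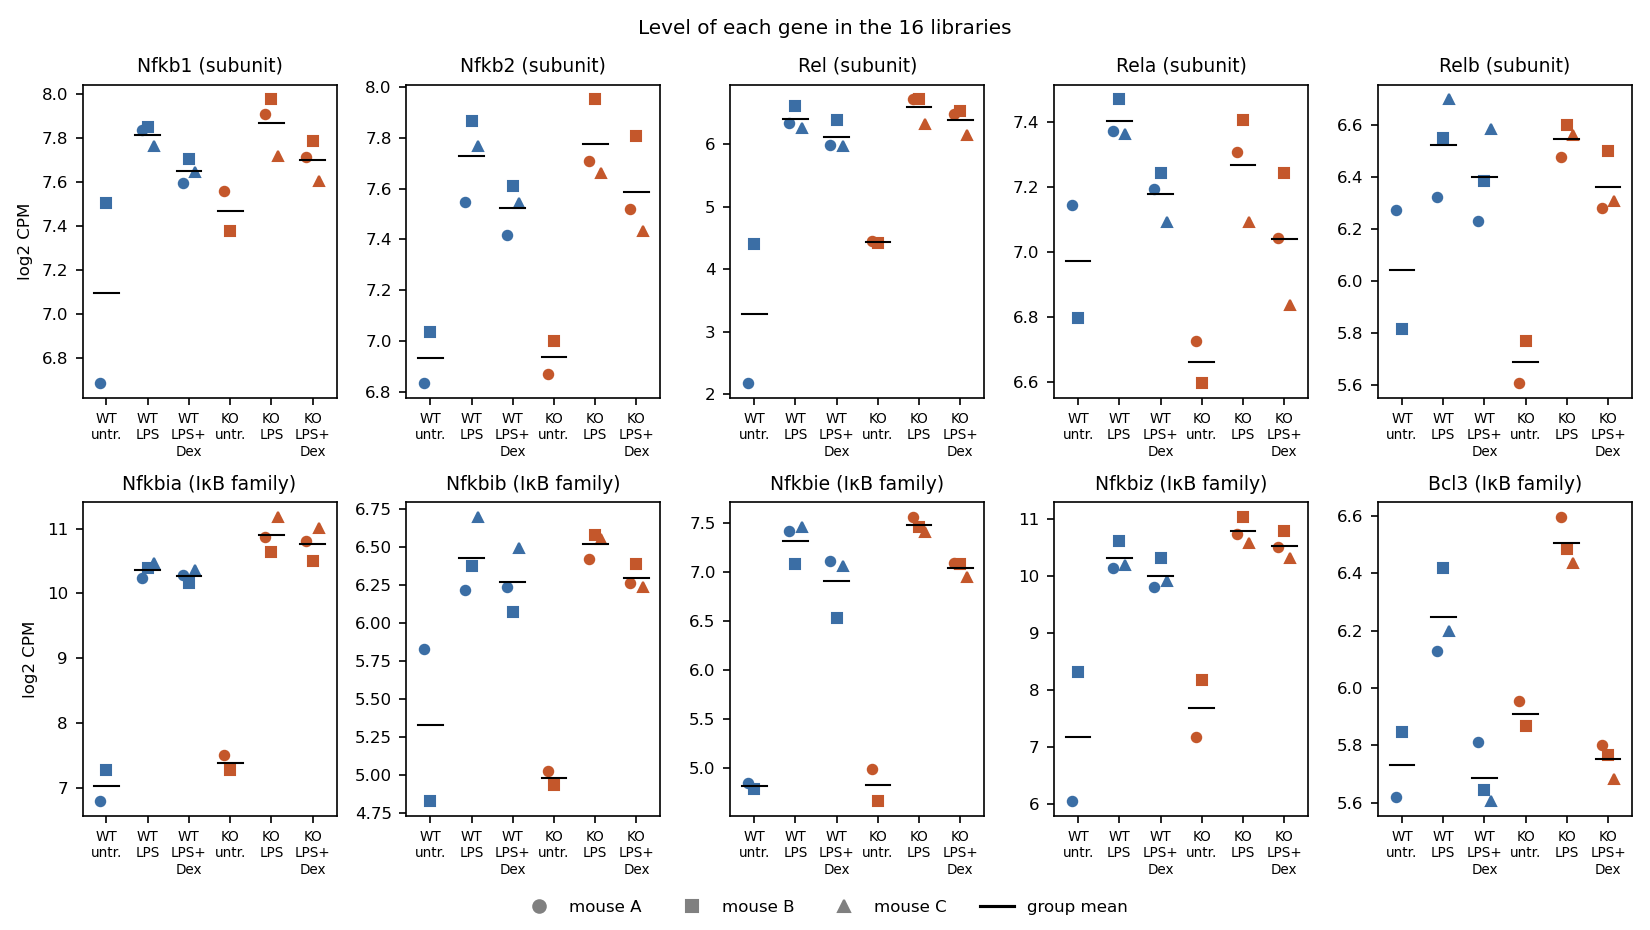
Level in log2 CPM (vertical axes, each with its own range) of the 5 subunit genes (top) and 5 IkB family genes (bottom) in WT (blue) and KO (orange) libraries. Symbols mark mice A, B and C and bars the group means. Every LPS library of every gene sits above both untreated libraries of its genotype, and Bcl3 with LPS+Dex (WT 5.60 to 5.81) sits back among the untreated values.

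LPS raised most of the 10 genes within 1 hr, and the median change was larger for the IkB family than for the subunit genes. In the WT, 8 of the 10 genes rose (limma, adjusted p under 0.05), against 4.63% of all 9614 genes called higher, and in the KO 9 rose, against 2.92%. All 5 IkB family genes rose in both genotypes, with median log2 changes of 2.51 (WT) and 2.66 (KO). The median over the 5 subunit genes was 0.72 and 0.84, and over all genes 0.02 and -0.01. Every LPS library lay above every untreated library of its genotype for all 10 genes, which was so for 14% of all genes in the WT and 12.6% in the KO. In the 4 mice with both libraries, all 40 same-mouse changes were above 0.

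Of the subunit genes, Rel had the largest change in either genotype. Rel was at 2.17 (mouse A) and 4.40 (mouse B) log2 CPM in untreated WT BMDM and at 6.35, 6.62 and 6.26 with LPS (mice A, B and C, the order kept below). In the KO it was at 4.46 and 4.42 untreated and at 6.72, 6.73 and 6.32 with LPS. The groups did not overlap, and the untreated library of WT mouse A was more than 2 log2 units below the other 3 untreated libraries. The log2 change was 3.12 (standard error 0.44, limma adjusted p = 0.000466) in the WT and 2.16 (standard error 0.44, limma adjusted p = 0.00951) in the KO. Without the untreated library of WT mouse A the WT change was 2.01 (limma adjusted p = 0.000132).

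The precursor genes rose less. Nfkb2 was at 6.83 and 7.04 log2 CPM in untreated WT BMDM and at 7.55, 7.87 and 7.77 with LPS, and at 6.87 and 7 untreated and 7.71, 7.95 and 7.66 with LPS in the KO. Its log2 changes were 0.79 and 0.84 (standard error 0.14 in each, limma adjusted p = 0.00387 and 0.00286). Nfkb1 rose by 0.72 in the WT (standard error 0.18, limma adjusted p = 0.0314), where it was at 6.69 and 7.51 untreated and at 7.84, 7.85 and 7.76 with LPS. The untreated WT values were the farther apart. Without the untreated library of WT mouse A the Nfkb1 change was 0.31 (limma adjusted p = 0.276), and the call was also lost without any 1 of the 3 WT LPS libraries (adjusted p = 0.0716 to 0.0929). In the KO its log2 change was 0.40 (limma adjusted p = 0.525), from 7.56 and 7.38 to 7.91, 7.98 and 7.72.

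For Rela and Relb the change passed the test in the KO and not in the WT, but the difference between genotypes did not pass a test of its own (given after the Dex results). Rela was at 7.14 and 6.80 log2 CPM in untreated and at 7.37, 7.47 and 7.36 in LPS-treated WT BMDM, 0.43 higher (standard error 0.14, limma adjusted p = 0.0912). With the mouse as a replicate block that change was 0.46 (limma adjusted p = 0.0341), which brought the count in the WT to 9 genes, and without the untreated library of WT mouse A it was 0.60 (adjusted p = 0.0505). In the KO, Rela went from 6.73 and 6.60 to 7.30, 7.41 and 7.09, with no overlap. It rose by 0.61 (standard error 0.14, limma adjusted p = 0.0276), and this call was lost without any 1 of 4 of the 5 libraries compared (adjusted p = 0.099 to 0.328; KO LPS of mouse C was the exception). Relb differed by 0.48 in the WT (limma adjusted p = 0.0878), from 6.27 and 5.82 to 6.32, 6.55 and 6.70, and rose by 0.86 in the KO (standard error 0.16, limma adjusted p = 0.00473), from 5.61 and 5.77 to 6.48, 6.60 and 6.56. The WT mouse A pair alone moved little, by 0.05, and without its untreated library the WT change of Relb was 0.71 (limma adjusted p = 0.0277).

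Nfkbia changed most of the inhibitor genes. It was at 6.79 and 7.27 log2 CPM in untreated WT BMDM and at 10.23, 10.40 and 10.47 with LPS, 10.1-fold higher (log2 change 3.34, standard error 0.20, limma adjusted p = 1.13e-07). In the KO it went from 7.50 and 7.27 to 10.88, 10.64 and 11.19, 11.5-fold higher (log2 change 3.52, standard error 0.20, limma adjusted p = 5.65e-08). Its same-mouse change exceeded that of each other gene in 4 of 4 mice, except Rel (3 of 4) and Nfkbiz (2 of 4). Nfkbiz was at 6.04 and 8.32 in untreated WT BMDM and at 10.14, 10.63 and 10.20 with LPS, and at 7.17 and 8.17 untreated and 10.75, 11.05 and 10.58 with LPS in the KO. Its untreated values were spread widely, and the log2 changes were 3.14 and 3.12 (standard error 0.49 in each, limma adjusted p = 0.00112 and 0.0013). Without the untreated library of WT mouse A, the WT changes of Nfkbia and Nfkbiz were 3.10 and 2.01 (limma adjusted p = 3.23e-06 and 0.00482).

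Nfkbie responded more evenly between mice than Nfkbib. Nfkbie was at 4.84 and 4.78 log2 CPM in untreated and at 7.42, 7.08 and 7.46 in LPS-treated WT BMDM, 5.69-fold higher (log2 change 2.51, standard error 0.17, limma adjusted p = 6.76e-07). In the KO it was at 4.99 and 4.66 and then at 7.57, 7.46 and 7.41, 6.30-fold higher (limma adjusted p = 3.04e-07). Nfkbib was at 5.82 and 4.82 in untreated WT BMDM and at 6.21, 6.37 and 6.70 with LPS. The same-mouse log2 changes of Nfkbib were 0.39 in WT mouse A and 1.55 in WT mouse B, against 1.40 and 1.65 in KO mice A and B. Over the groups Nfkbib rose by 1.10 in the WT (standard error 0.23, limma adjusted p = 0.0108), or by 1.60 without the untreated library of mouse A, and by 1.54 in the KO (limma adjusted p = 0.000945).

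Bcl3 had the smallest LPS change of the IkB family genes. It was at 5.62 and 5.85 log2 CPM in untreated WT BMDM and at 6.13, 6.42 and 6.2 with LPS, and at 5.95 and 5.87 and then 6.60, 6.48 and 6.44 in the KO. Its log2 change was 0.51 in the WT (standard error 0.12, limma adjusted p = 0.0183) and 0.60 in the KO (limma adjusted p = 0.00842). Both calls depended on single libraries. The WT call was lost without the untreated library of mouse A (change 0.40, adjusted p = 0.135) or the LPS library of mouse B (0.43, adjusted p = 0.0621), and the KO call without the untreated library of mouse A (0.64, adjusted p = 0.0592) or mouse B (0.55, adjusted p = 0.129). Nfkbia, Nfkbib, Nfkbie and Nfkbiz kept their call in both genotypes whichever library was left out, but a fit of only the 8 WT libraries lost Nfkbib (1.10, adjusted p = 0.16) along with Nfkb1 and Bcl3 (adjusted p = 0.236 and 0.215). Without the untreated library of WT mouse B, the WT changes of Rel, Nfkb1, Nfkbiz and Nfkbib were 4.23, 1.13, 4.28 and 0.60. Without the untreated library of KO mouse A, the KO calls of Nfkb2, Rel, Rela and Relb were also lost (changes 0.77, 2.18, 0.67 and 0.77). Without that of KO mouse B, the KO calls of Rel and Rela were lost (changes 2.14 and 0.54).

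**Figure D2:**
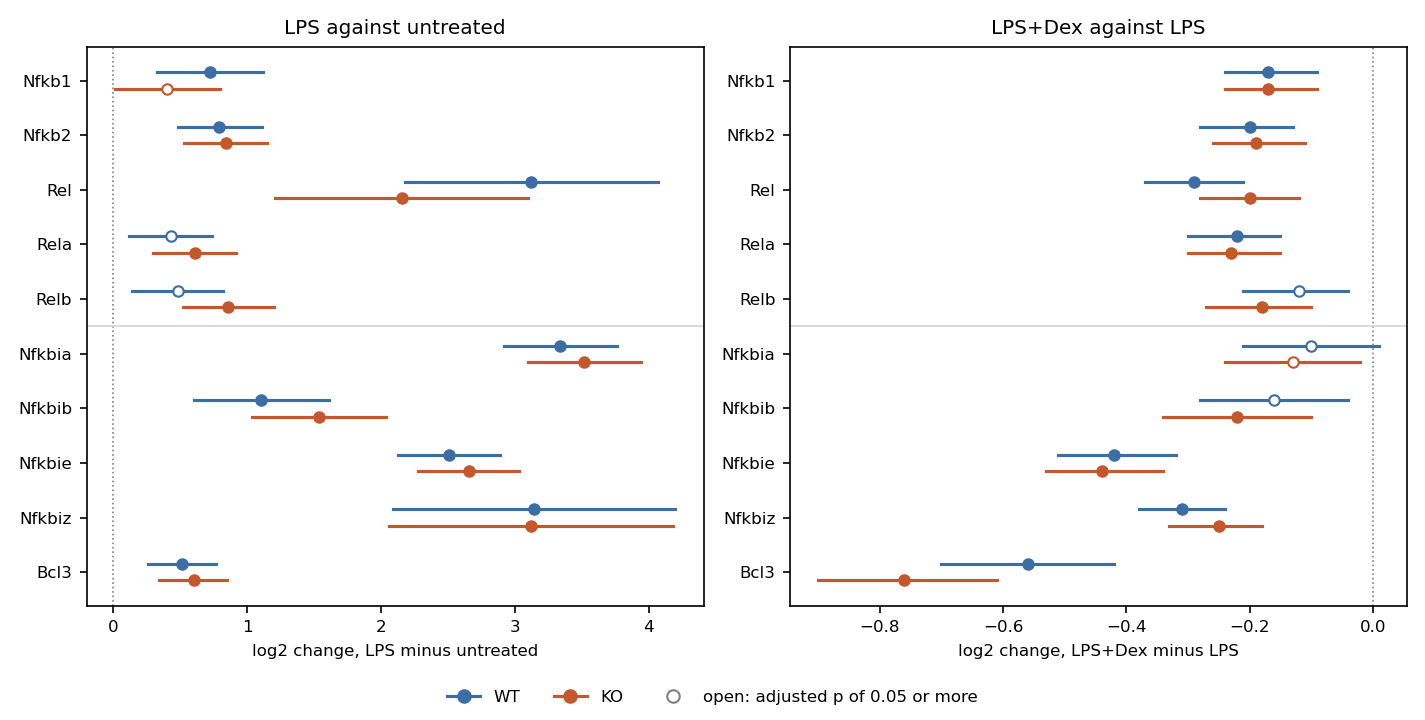
Log2 change (horizontal axes) of each gene with LPS against untreated (left) and with LPS+Dex against LPS (right), in WT (blue) and KO (orange). Points are limma estimates, bars their 95% confidence intervals, open points did not pass an adjusted p of 0.05, and the gray line separates subunits from IkB family genes. The LPS changes reach 3.52 (Nfkbia in the KO), and the Dex changes lie between -0.76 (Bcl3 in the KO) and -0.10 (Nfkbia in the WT).

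Dex lowered most of the 10 genes in the same mouse, by less than 1 log2 unit each. The LPS and LPS+Dex libraries of each of the 6 mice were compared with the mouse as a term, and these LPS libraries are the ones used above. In the WT 7 of the 10 genes fell (limma, adjusted p under 0.05), against 5.65% of all genes called lower, and in the KO 9 fell, against 6.99%. None was called higher. Of the 60 same-mouse changes, 58 were below 0, and the exceptions were Nfkbia (0.05) and Nfkbib (0.02) in WT mouse A. The 5 subunit genes had median log2 changes of -0.20 (WT) and -0.19 (KO), and that of the 5 IkB family genes -0.31 and -0.25, against -0.01 and 0.00 over all genes. Between mice the levels overlapped for most genes. All LPS+Dex libraries lay below all LPS libraries for 3 genes in each genotype (Nfkb1, Rela and Bcl3 in the WT, and Nfkbib, Nfkbie and Bcl3 in the KO), against 2.96% and 4.45% of all genes. Without the mouse as a term only Bcl3 was called in either genotype.

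Bcl3 showed the largest fall, in 5 of 6 mice the largest of the 10 genes. With LPS+Dex it was at 5.81, 5.64 and 5.60 log2 CPM in WT BMDM, and the same-mouse changes from LPS were -0.32, -0.77 and -0.59. In the KO it was at 5.80, 5.77 and 5.68, with same-mouse changes of -0.80, -0.71 and -0.75. Bcl3 fell by 0.56 on the log2 scale in the WT (standard error 0.06, limma adjusted p = 5.27e-05) and by 0.76 in the KO (standard error 0.06, limma adjusted p = 3.28e-06). On the linear scale its level fell by 32.2% and fell by 40.7%. The WT values with LPS+Dex overlapped the untreated values of 5.62 and 5.85, and the KO values lay below the untreated values of 5.95 and 5.87. The mean of Bcl3 with LPS+Dex (WT 5.69, KO 5.75) was below its untreated mean (5.73, 5.91), while that of the other 9 genes was above theirs in each genotype. These differences were not tested. From untreated to LPS+Dex in the same mouse, Bcl3 changed by 0.19 and -0.20 in WT mice A and B, so the mice disagreed in direction. It changed by -0.15 and -0.10 in KO mice A and B. Relb was at -0.04 in WT mouse A.

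The Dex changes of the cytoplasmic inhibitors ranged from a clear fall of Nfkbie to no called change of Nfkbia. Nfkbie was at 7.12, 6.53 and 7.06 log2 CPM with LPS+Dex in the WT and at 7.09, 7.08 and 6.95 in the KO, with same-mouse changes of -0.30, -0.55 and -0.39 and of -0.47, -0.38 and -0.46. It fell by 0.42 in the WT (standard error 0.04, limma adjusted p = 2.61e-05) and by 0.44 in the KO (standard error 0.04, limma adjusted p = 1.41e-05), so that its linear level fell by 25% and fell by 26.1%. Nfkbia was at 10.29, 10.15 and 10.36 in the WT and at 10.81, 10.50 and 11.01 in the KO, with same-mouse changes of 0.05, -0.24 and -0.12 and of -0.07, -0.15 and -0.18. Its log2 change was -0.10 in the WT (95% confidence interval -0.21 to 0.01, limma adjusted p = 0.325) and -0.13 in the KO (-0.24 to -0.02, limma adjusted p = 0.116). Nfkbie and Bcl3 each fell further than Nfkbia in 6 of 6 mice. Nfkbib changed by -0.16 in the WT (limma adjusted p = 0.0924) and fell by 0.22 in the KO (limma adjusted p = 0.015). Without WT mouse A its WT change was -0.25 (adjusted p = 0.00709), and without KO mouse C its KO change was -0.18 (adjusted p = 0.161). Nfkbiz fell by 0.31 in the WT and by 0.25 in the KO (limma adjusted p = 3.14e-05 and 0.00015).

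Rel fell most of the subunit genes in the WT. With LPS+Dex it was at 5.99, 6.40 and 5.98 log2 CPM in the WT and at 6.49, 6.53 and 6.15 in the KO. It fell by 0.29 in the WT (limma adjusted p = 0.000133) and by 0.20 in the KO (limma adjusted p = 0.00215). Rela fell by 0.22 and 0.23 in the WT and KO (limma adjusted p = 0.000639 and 0.000493), Nfkb2 by 0.20 and 0.19 (0.00135 and 0.0022) and Nfkb1 by 0.17 in each (0.00633 and 0.00545). On the linear scale Nfkb1 fell by 11% in each genotype, and Rela fell by 14.4% in the WT and fell by 14.6% in the KO. Relb changed by -0.12 in the WT (limma adjusted p = 0.062) and fell by 0.18 in the KO (limma adjusted p = 0.00539). Leaving out WT mouse A took Nfkb1 in the WT to adjusted p = 0.0707, and leaving out KO mouse C took Relb in the KO to 0.0773. At a threshold of 1.3-fold and adjusted p under 0.1, 2 genes were called in each genotype, Nfkbie and Bcl3.

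Neither response differed detectably between the genotypes for any of the 10 genes. For the LPS change, 0 genes of the 10 and 0% of all genes passed limma's adjusted p of 0.05. At an unadjusted p under 0.05 there were 0 of the 10, against 221 of all 9614 genes. The differences (KO minus WT) ran from -0.97 for Rel (95% confidence interval -2.30 to 0.37, limma adjusted p = 0.69) to 0.44 for Nfkbib (-0.27 to 1.15, adjusted p = 0.69), with Nfkb1 at -0.32 and Relb at 0.38 (adjusted p = 0.69 for each). These values rested on the untreated library of WT mouse A. Without it the differences of Rel, Nfkb1, Relb and Nfkbib were 0.15, 0.09, 0.15 and -0.06. Without the untreated library of WT mouse B instead, which leaves that of mouse A as the sole WT untreated library, 4 genes were called (Rel at -2.08, Nfkb1 at -0.73, Relb at 0.60 and Nfkbib at 0.94), and so were 3734 of all genes. For the Dex change, 0 of the 10 genes passed, against 0.0104% of all genes (1 gene, Dusp2, named after its value was seen). Again 0 of the 10 had an unadjusted p under 0.05, against 669 of all 9614 genes. Bcl3 was at -0.19 (95% confidence interval -0.39 to 0.01, limma adjusted p = 0.721), at -0.07 without WT mouse A and at -0.30 without WT mouse B. Rel was at 0.09 (-0.03 to 0.20, limma adjusted p = 0.787). Relb was at -0.06 and Nfkbiz at 0.06, and the other genes lay within their standard errors of 0. limma-voom on recovered reads also called 0 of the 10 genes in both tests.

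Nfkbia and Nfkbiz were higher on average in KO than in WT BMDM with LPS, but not past the adjusted threshold. Within each treatment, 0 of the 10 genes and 0% of all genes passed (limma adjusted p under 0.05), and voom also called 0 of the 10. The deleted gene Nelfb did not pass either. Its log2 differences were -2.11 untreated, -2.02 with LPS and -2 with LPS+Dex (limma adjusted p = 0.889, 0.105 and 0.0889). The lack of a call in these tests therefore does not show equal levels. At an unadjusted p under 0.05 there were 0 of the 10 untreated and 3 with LPS (Nfkbia, Nfkbiz and Bcl3, all higher in the KO). With LPS+Dex there were 2 (Nfkbia and Nfkbiz, both higher in the KO). Of all 9614 genes, 37 untreated, 811 with LPS and 1090 with LPS+Dex had an unadjusted p under 0.05, in either direction. With LPS the 3 KO values of Nfkbia (10.64 to 11.19 log2 CPM) lay above the 3 WT values (10.23 to 10.47). The log2 difference was 0.54 (95% confidence interval 0.16 to 0.91, 44.9% higher, limma adjusted p = 0.355). The values were also separate with LPS+Dex, where the log2 difference was 0.50 (0.14 to 0.86, limma adjusted p = 0.262). LPS and LPS+Dex libraries come from the same mice, so the treatments do not give separate evidence. Nfkbiz differed by 0.47 with LPS (0.04 to 0.89, limma adjusted p = 0.516) and by 0.52 with LPS+Dex (0.09 to 0.96, limma adjusted p = 0.333), with overlapping values.

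Bcl3 values with LPS were all higher in the KO (6.44 to 6.60 log2 CPM) than in the WT (6.13 to 6.42), with a log2 difference of 0.26 (limma adjusted p = 0.581), but with LPS+Dex the groups overlapped. Nfkbia and Bcl3 were thus the genes separate with LPS, which 5.91% of all genes were in that direction, and Nfkbia was the one separate with LPS+Dex, as were 8.93% of all genes. The log2 differences of Nfkbie, Rel and Rela with LPS were 0.16, 0.18 and -0.13 (limma adjusted p = 0.876, 0.89 and 0.89), and those of the remaining genes were within a standard error of 0. With LPS+Dex, Rel and Rela differed by 0.27 and -0.14 (limma adjusted p = 0.587 and 0.744). In untreated BMDM the log2 difference of Rel was 1.15 (95% confidence interval -0.76 to 3.06, limma adjusted p = 0.889), or 0.03 without WT mouse A. Those of Nfkb1, Nfkbia, Rela and Relb were 0.37, 0.35, -0.31 and -0.36 (limma adjusted p = 0.889 for each). They were -0.04, 0.11, -0.14 and -0.13 without the untreated library of WT mouse A. Without that of WT mouse B instead they were 0.78, 0.60, -0.48 and -0.58, and the difference of Rel was 2.26. These last values rest on mouse A as the sole WT untreated library.

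**Figure D3:**
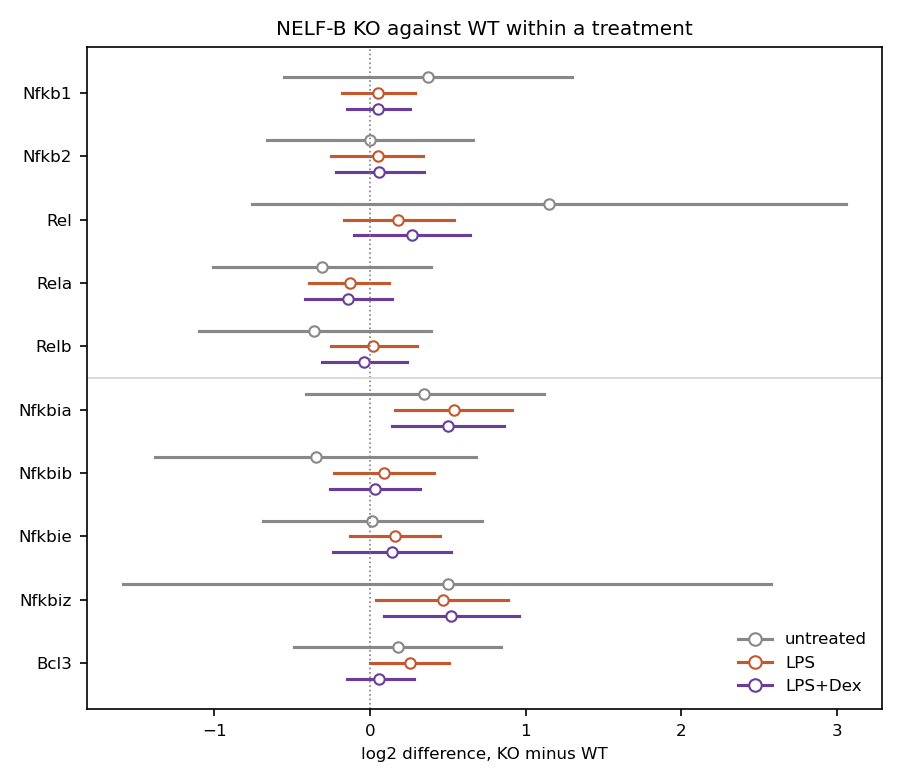
Log2 difference between KO and WT (horizontal axis, KO minus WT) of each gene in untreated (gray), LPS (orange) and LPS+Dex (purple) BMDM, as limma estimates with 95% confidence intervals. All points are open because 0 of the 10 genes passed an adjusted p of 0.05. With LPS and LPS+Dex the intervals of Nfkbia (0.16 to 0.91 and 0.14 to 0.86) and Nfkbiz lie above 0.

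The balance of inhibitor over subunit transcripts was described as the ratio of their summed CPM per kb, with no test, since it is a sum over chosen genes. In untreated BMDM the 5 IkB family genes stood at 1.02 and 1.49 times the 5 subunit genes in the WT and at 1.44 and 1.56 times in the KO. With LPS the ratio was 5.29, 5.50 and 5.62 in the WT and 7.5, 6.5 and 9.18 in the KO. With LPS+Dex it was 5.73, 5.19 and 5.66 in the WT and 7.87, 6.29 and 9.10 in the KO. LPS libraries were thus well above untreated ones, LPS+Dex libraries lay within or close to the LPS range of their genotype, and KO values of this ratio were above the WT values with either treatment. Restricted to the cytoplasmic inhibitors Nfkbia, Nfkbib and Nfkbie, the ratio was 0.73 and 0.79 in untreated WT BMDM, 3.78 to 4.27 with LPS and 3.64 to 4.48 with LPS+Dex. In the KO that ratio was 0.98 and 0.85 untreated, 4.35 to 7.27 with LPS and 4.32 to 7.32 with LPS+Dex, so that the genotypes overlapped with LPS+Dex. Nfkbia made up 42.3% to 54.1% of the inhibitor sum in untreated BMDM and 59.8% to 73.5% with LPS. Together, Nfkbia and Nfkbiz made up 87.8% to 93.3% of it in the LPS and LPS+Dex libraries. The higher KO ratios are thus not separate from the genotype differences of Nfkbia and Nfkbiz, which did not pass.

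**Figure D4:**
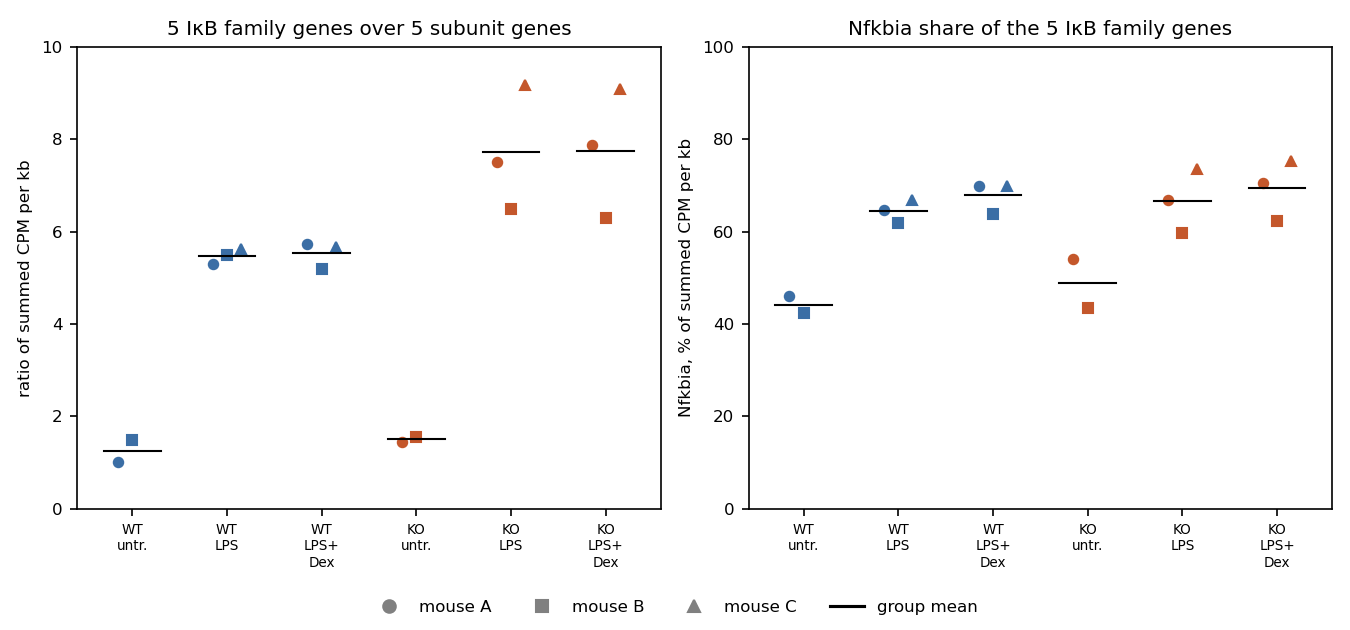
Left, ratio of the summed CPM per kb of the 5 IkB family genes to that of the 5 subunit genes in each library. Right, Nfkbia as a percentage of the IkB family sum. WT is blue, KO orange, symbols mark mice and bars group means, and both axes start at 0. The ratio lies between 1.02 and 1.56 in untreated libraries and between 5.19 and 9.18 in all others.

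The wider pathway was covered by 3 lists. Among 17 ubiquitin and feedback regulators, 7 rose in the WT and 5 in the KO and none fell (limma adjusted p under 0.05), against 4.63% and 2.92% of all genes called higher and 2.28% and 1.09% called lower, with median log2 changes of 0.45 and 0.15. Tnfaip3, which encodes the ubiquitin-editing enzyme A20, rose by 5.25 in the WT and 5.32 in the KO (limma adjusted p = 1.03e-09 and 9.69e-10), above the 3.34 and 3.52 of Nfkbia. Birc3, encoding the ubiquitin ligase cIAP2, rose by 1.82 and 1.34, and N4bp1 by 1.43 and 1.02. Tnip1, whose protein ABIN1 binds A20, rose by 0.93 and 1.12, and Zc3h12a, encoding the RNase regnase-1, by 0.92 and 1.02. Tank rose by 1.04 in the WT (limma adjusted p = 0.0134) and was at 0.33 in the KO (adjusted p = 1), but the genotype difference of -0.71 did not pass (adjusted p = 0.69). Among 15 kinases of the IKK pathway and upstream, Irak2 rose by 1.17 and 1.02 and Tab1 was the 1 that fell, by 0.88 in the WT. Tab1 was at -0.35 in the KO, and the genotype difference of 0.52 did not pass (limma adjusted p = 0.69). Among 12 genes of IkB turnover and other IkB-like or nuclear regulators, Nfkbid, encoding the nuclear inhibitor IkBNS, was the 1 that rose, by 1.99 in the WT and 2.33 in the KO (limma adjusted p = 4.71e-06 and 9.21e-07).

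Dex moved members of the feedback list both ways. In the WT 3 of the 17 feedback regulators rose and 2 fell, and in the KO 3 rose and 4 fell, with median log2 changes of 0.00 and 0.01. Of all genes, 4.77% (WT) and 7.1% (KO) were called higher, and 5.65% and 6.99% lower. Zc3h12a rose by 0.37 in the WT and 0.40 in the KO, and N4bp1 by 0.29 and 0.37, while Tnip1 fell by 0.29 and 0.36 (limma adjusted p of 0.000283 or less for each). Traf6 rose by 0.16 in the WT and 0.36 in the KO (limma adjusted p = 0.038 and 8.93e-05), but the genotype difference of 0.20 did not pass (adjusted p = 0.536). Tnfaip3 was at 0.07 and 0.11 (limma adjusted p = 0.455 and 0.0823). Of the 15 kinases, 1 rose and 1 fell in each genotype. Map3k14, encoding the NF-kB-inducing kinase of the p100 processing pathway, fell by 0.49 and 0.52, and Map3k8, encoding the MAP kinase kinase kinase Tpl2, rose by 0.24 and 0.22 (limma adjusted p = 0.00115 and 0.00233). Of the 12 turnover and IkB-like genes, 1 fell in the WT and 2 in the KO, and none rose. Nfkbid fell by 0.54 in the WT and 0.57 in the KO (limma adjusted p = 1.1e-05 and 5.8e-06). Whether these lists differ from the 10 genes was not tested.

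Genes outside the 10 with the profile most like each of them over the 16 libraries were named by the mean absolute difference of centered log2 CPM. For Nfkbia these were Pde4b and Nlrp3 (0.25 for each), Plk2 (0.27), Ier2 and Ifrd1 (0.31 for each). Nfkb1 was matched by Cwc25 (0.05), Rela by Opa3 (0.08), Relb by Sbds (0.09), Nfkb2 by Ndel1 (0.10) and Bcl3 by B4galt5 (0.11). For the strongly induced genes the nearest profile was less close, with Nfkbib matched by Bcl2a1b (0.16), Nfkbie by Rab11fip1 (0.17), Rel by Klf6 (0.20) and Nfkbiz by Kdm6b (0.22). Within the 10 genes, Rel and Nfkbiz were at a distance of 0.21 from each other, which for Nfkbiz was closer than Kdm6b.

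In the GENCODE annotation (GRCm38), the genes with no stretch shown above lie at chr3:135584655-135691547 (Nfkb1), chr7:19606217-19629438 (Relb), chr7:28758251-28767512 (Nfkbib) and chr16:55811375-55838899 (Nfkbiz), each on the minus strand. Exons of Nfkb2 share 299 bases with Psd and 531 with a bidirectional-promoter lncRNA, exons of Nfkbib share 314 bases with Ccer2 and 42 with Sirt2, and those of Bcl3 share 161 bases with an antisense RNA, all on the opposite strand. The strand setting of the counting is not given in the sources used here, so reads in these stretches cannot be assigned to 1 gene with certainty. The exons of the other 7 genes overlap no exon of another annotated gene.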

How the data were processed

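Paired reads had been mapped by the authors to mm10 (CLC Bio Genomic Workbench). Reads falling uniquely in exons were summed per gene, and TMM scaling by the authors in edgeR gave the deposited log2 CPM, which cover 9614 genes and 16 libraries. The deposited p-values and FDR values of the authors' own comparisons were not used. Genes outside this table were not analysed here. Groups and mouse numbers come from the sample labels, which do not say that numbers are mice or that cultures were separate. P-values measure the spread between these libraries, and in the Dex comparisons the spread of the same-mouse changes. The LPS comparisons treated libraries of the same mouse as separate. With the mouse as a random effect, the correlation of libraries within a mouse was 0.49.

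Each comparison was fitted to the log2 CPM of all genes with lmFit and eBayes (trend) in limma 3.58.1 under R 4.3.3, two-sided, with Benjamini-Hochberg adjustment over 9614 genes. LPS changes used group means over all 16 libraries. Dex changes used the 12 LPS and LPS+Dex libraries with the mouse as a term, and KO was compared with WT within 1 treatment. The pairing comes from the labels, and same-mouse LPS and LPS+Dex libraries deviated together from their group means (r of 0.78 to 0.94), as did untreated and LPS libraries (WT 0.45, KO 0.87). The 10 genes, the pathway lists and their tests were chosen with earlier results of these data known. Single genotype differences are given where they exceed their standard error. Genes of the pathway lists are named where called with a log2 change above 1 (LPS) or 0.3 (Dex) in either genotype, and in other cases were chosen after their values were seen. With 1 step of the deposited values taken as 1 read, 100.0% of values under 3 CPM came out whole (tolerance 0.1), which gave the depth. The test was tried on simulated data. Gene positions and principal transcript lengths are from GENCODE vM21 (GRCm38, which mm10 also names), promoters from RefSeq (GRCm38.p6). Python 3.11.15, numpy 2.4.6 and pandas 2.3.3 were used for other values. Alternatives were other fits, scalings, filters and thresholds, leaving out each library and, added after seeing the data, voom on the recovered reads and the mouse as a random effect.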

Additional observations from a re-analysis of the deposited data

How the results depend on the processing

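In each comparison, those of the 10 genes whose change exceeded its standard error were recomputed under alternatives other than leaving out a library. Of these 448 values, 413 kept their direction and their side of the threshold. Another 33 kept their direction and lost the call, 2 gained it and 0 changed sign. Smaller changes were left out. The filter and the other thresholds keep the same estimates, so under them no sign could change. Counts of the 10 genes called stayed within 1.5 times under the filter, log2(CPM + 1), median centring and voom. For LPS, however, voom called 7 of the 10 genes in each genotype. It lost Nfkb1 in the WT (limma-voom adjusted p = 0.0738) and Rela and Bcl3 in the KO (0.0727 and 0.117). For LPS in the WT the count was 5 of 10 with only the WT libraries (253 of all genes, against 664), and the replicate block gave 1326 of all genes in the WT and 704 in the KO (against 386) and changed no other call than that of Rela in the WT. Without the replicate block, Dex called 1 of 10 genes in each genotype (110 and 140 of all genes, against 1002 and 1355), and 0 genes differed in Dex change. At adjusted p under 0.1 and 1.3-fold, Dex called 2 of 10 in each genotype (438 and 511 of all genes), and 2 genes differed in Dex change, as with voom. Between genotypes the counts of all genes were 1 untreated, 14 with LPS and 11 with LPS+Dex from all 16 libraries, 3, 12 and 59 with mice of the same letter as a term, 2, 31 and 51 with the mouse as a random effect, 2 and 1 (LPS and LPS+Dex) with voom, 2 and 12 at 1.5-fold and adjusted p under 0.1, and 1 with LPS+Dex after centring. None of these called any of the 10 genes.

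Leaving out each library in turn gave 6 to 8 of the 10 genes for LPS in the WT (379 to 5390 of all genes), 4 to 9 in the KO (235 to 338), and 0 to 4 for the genotype difference in LPS change (0 to 3734 of all genes). It gave 7 and 7 to 9 genes for Dex in the WT and KO (703 to 845 and 881 to 1165 of all genes), and 0 to 3 of all genes for the genotype difference in Dex change. For KO against WT it gave 0 to 6 of the 10 genes untreated (0 to 4203 of all genes), 0 with LPS (0 to 95) and 0 with LPS+Dex (0 to 146). The extremes untreated came without the untreated library of WT mouse B. The genotype difference in LPS change ran from -0.73 to 0.09 for Nfkb1, from -2.08 to 0.15 for Rel and from -0.06 to 0.94 for Nfkbib, and the untreated difference of Nfkb1 from -0.04 to 0.78. The causes were not tested. A lone library left in a group was assumed to vary like the other groups.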
